A study of Mus musculus with 66 samples.

Results

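The 8 genes described here encode enzymes that neutralise reactive electrophiles, peroxides and quinones in gut epithelium: the glutathione transferases Gsta3 and Gsta4 (alpha class), Gstm1 and Gstm3 (mu class), Gstp1 (pi class) and Gsto1 (omega class), the glutathione peroxidase Gpx2 and the quinone reductase Nqo1. They were taken by symbol from a table of 30448 genes, and all 8 were found. The names were selected on earlier results of these same expression values, with no threshold, so the members' own levels and differences are given as a description, without p-values, and their counts support nothing. In the DSS-treated colon, Gsta3, Gstm1, Gstm3 and Nqo1 were low at day 6, when Gsta3 averaged 0.667 TPM in rectum against 30.1 TPM before injury. Gpx2 was high at day 9, at 3012 TPM in mid-colon against 298 TPM before injury. Gsta4 and Gsto1 were instead abundant in anus and in the squamous neo-epithelium, in every sample of both.

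The samples were bulk RNA-seq libraries from 19 C57BL/6 mice, purchased at 6 weeks of age; the labels name no engineered allele. All but the uninjured day 0 controls (4 mice) received 3% dextran sulfate sodium (DSS), a polymer that injures the colonic lining, for 6 days from day 0, and 3 mice each were killed at days 3, 6, 9, 14 and 20, so the day 3 mice had not completed the exposure. Mid-colon, rectum and anus were sampled from every mouse (19 samples each). Squamous neo-epithelium, a squamous lining sampled separately after injury, came from the 9 mice of days 9, 14 and 20, and the muscle layer was discarded from each section before RNA isolation, per the labels. The replicates of a group were different mice by their labelled numbers, and sections with the same number came from 1 mouse.

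Glutathione transferases attach the tripeptide glutathione to electrophilic compounds, which can then be exported from the cell by transporters of the ABCC family. Glutathione peroxidases use glutathione to reduce peroxides, and glutathione reductase restores it. Many genes of this defence carry an antioxidant response element, to which the transcription factor NRF2 (encoded by Nfe2l2) binds once its inhibitor KEAP1 releases it. In the intestine, the epithelium carries much of this chemistry, because it faces food, bile and bacterial products.

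The members lie on 6 chromosomes of the mouse genome build GRCm38 (mm10), by the GENCODE M21 annotation. Gsta3 spans chr1:21240589-21265661 (plus strand) and Gsta4 spans chr9:78182774-78209349 (plus strand). Gstm3 at chr3:107963696-107969283 (minus strand) and Gstm1 at chr3:108012255-108017973 (minus strand) both lie in the mu class cluster. Gstp1 lies at chr19:4035407-4037985 (minus strand) and Gsto1 at chr19:47854970-47864790 (plus strand). Gpx2 lies at chr12:76792333-76795554 (minus strand) and Nqo1 at chr8:107388225-107403206 (minus strand).

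The core letters of the antioxidant response element, TGACNNNGC, were searched on both strands in the 250 bases before each gene start (RefSeq promoter windows, GRCm38.p6). Of 32851 windows in all, 10.2% held them. Windows were found for 7 members, and the letters were present in 1 of them, Gsta3. The windows of Gstm1, Gstm3, Gstp1, Gsto1, Gpx2 and Nqo1 did not hold these letters, and Gsta4 was not matched. Bases further from the gene start and variants of the letters were not searched. A window without them therefore does not show that a gene lacks the element. The Gsta3 stretch is shown because Gsta3 had the largest differences of all members at days 3 and 6 in the colon. Its match starts 121 bases before the RefSeq gene start, and capitals mark the 9 letters (chr1:21240434-21240502, plus strand).
Gsta3: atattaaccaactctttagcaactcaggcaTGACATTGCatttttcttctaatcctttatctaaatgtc
A match describes letters and is no evidence of binding.

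Near-identical relatives limit how well short reads separate some members. The first 75 coding bases, the length of 1 read, are shown for Gstm1 and Gstm3, the mu class pair that was low together in the injured colon, with capitals at the 10 bases where they differ (GENCODE M21 transcripts).
Gstm1: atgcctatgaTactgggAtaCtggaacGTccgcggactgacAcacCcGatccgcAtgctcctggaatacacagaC
Gstm3: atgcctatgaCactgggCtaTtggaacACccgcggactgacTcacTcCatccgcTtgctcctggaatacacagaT
Over their 654 coding bases the pair was 89.4% identical, and 14.8% of the 75-base windows of the main Gstm1 transcript and 21.6% of those of Gstm3 also occurred in a transcript of another gene. The pi class pair was closer, with 6 differences in the same stretch and 98.1% identity over 630 coding bases.
Gstp1: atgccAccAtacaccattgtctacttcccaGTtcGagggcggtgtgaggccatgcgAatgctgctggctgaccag
Gstp2: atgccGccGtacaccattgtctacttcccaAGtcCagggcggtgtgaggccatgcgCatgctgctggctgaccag
For Gstp1, 57.7% of windows were shared, mainly with Gstp2, so its level is uncertain. For Gpx2 10.3% of windows occurred in the pseudogene Gpx2-ps1, and for Gsta3, Gsta4, Gsto1 and Nqo1 the share was 0%. Gstp1 also stood under 2 gene identifiers with equal values in 66 of 66 samples (relative tolerance 1e-05), which were summed.

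Values are TPM (transcripts per 1000000), which adjust for transcript length and give each library an equal sum. The depth per sample is unknown, and each library had 11264 to 13785 genes at 1 TPM or more. Mitochondrial transcripts took 6.26% to 28.5% of TPM. Section labels were checked against 12 colonocyte and 12 squamous marker genes. Summed colonocyte markers were at 7181 to 25596 TPM in mid-colon and rectum, with all 12 at a mean of at least 1 TPM on every day. They were at 51.9 to 7296 TPM in anus and 36.9 to 8924 TPM in neo-epithelium. The upper ends overlapped rectum at day 9 (7181 to 9302 TPM), so colonocyte markers alone did not separate the sections. Summed squamous markers were at 13062 to 33057 TPM in anus and neo-epithelium, again with all 12 detected, and at 6.15 to 1018 TPM in mid-colon and rectum. Anal samples also held skeletal muscle markers (8 genes, 1785 to 18224 TPM summed) although the muscle layer had been discarded, against 2.69 to 12.4 TPM in neo-epithelium. In bulk tissue, fewer cells of a type and less RNA per cell cannot be told apart.

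Before injury, Gsto1 was the most abundant member in the colon and Nqo1 the least. In mid-colon the order by mean TPM was Gsto1 (321 ± 32.1 TPM (SD, n = 4)), Gpx2 (298 ± 58 TPM (SD, n = 4)), Gstp1 (253 ± 47.6 TPM (SD, n = 4)), Gstm1 (195 ± 33.5 TPM (SD, n = 4)), Gsta4 (38.2 ± 8 TPM (SD, n = 4)), Gstm3 (33.6 ± 8.3 TPM (SD, n = 4)), Gsta3 (25.9 ± 5.84 TPM (SD, n = 4)) and Nqo1 (17.5 ± 1.91 TPM (SD, n = 4)). The ranges of Gsto1, Gpx2 and Gstp1 overlapped, as did those of Gsta4, Gstm3 and Gsta3. Rectum had nearly the same levels, with Gsta4 at 57.3, 62.9, 79.5 and 47.2 TPM and Gsto1 at 441, 427, 431 and 375 TPM, each above all 4 mid-colon samples. The differences were 0.68 ± 0.187 (log2, SE) for Gsta4 and 0.38 ± 0.0981 for Gsto1. None of the 8 members passed the test between rectum and mid-colon at day 0, which did not pair the sections of a mouse. In that unpaired test, 1.52% of 12033 genes were called higher in rectum and 0.274% lower (calls here and below are limma with an adjusted p under 0.05). The median gene was 0.21 higher in rectum on the log2 scale, against -0.01 after rescaling by trimmed mean factors (TMM), and Gsta3, Gstp1, Gpx2 and Nqo1 took the opposite sign after that rescaling. With TMM, 42 genes were called higher and 66 lower, in place of 183 and 33. With the mouse as a block, 979 genes were called in place of 216, and 9 listed pathway genes in place of 2.

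The uninjured anus differed from rectum most in Gsta4 and Gsto1. Gsta4, which conjugates the lipid peroxidation product 4-hydroxynonenal, was at 1688, 1057, 868 and 733 TPM in the 4 anal samples. Gsto1, an omega class enzyme with thioltransferase and dehydroascorbate reductase activity, was at 6001, 3656, 3561 and 3056 TPM. All 4 anal samples exceeded all 4 rectal ones for both genes, by 4.07 ± 0.252 and 3.23 ± 0.193 (log2, SE). Gstm3 was at 1.02, 2.53, 1.84 and 8.58 TPM in anus against 23.5, 23.7, 32.3 and 24.3 TPM in rectum, a difference of -2.84 ± 0.404. Colonocyte markers in the same 4 anal samples summed, in that order, to 1977, 2804, 1706 and 5268 TPM. The part of colonocyte RNA in the anal Gstm3 values was not tested. Gpx2 was -0.55 ± 0.184 apart, lower in all 4 anal samples, a call kept in 4 of 8 alternatives; it was lost with TMM (-0.44) and without mouse 2 (-0.61), mouse 3 (-0.30) or mouse 4 (-0.58). The calls were 2 higher and 2 lower of 8, where 25.9% of 13154 genes were higher in anus and 34.4% lower. The median gene was -0.15 apart here and -0.06 with TMM. Gsta3, Gstm1, Gstp1 and Nqo1 overlapped between anus and rectum.

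**Figure D1:**
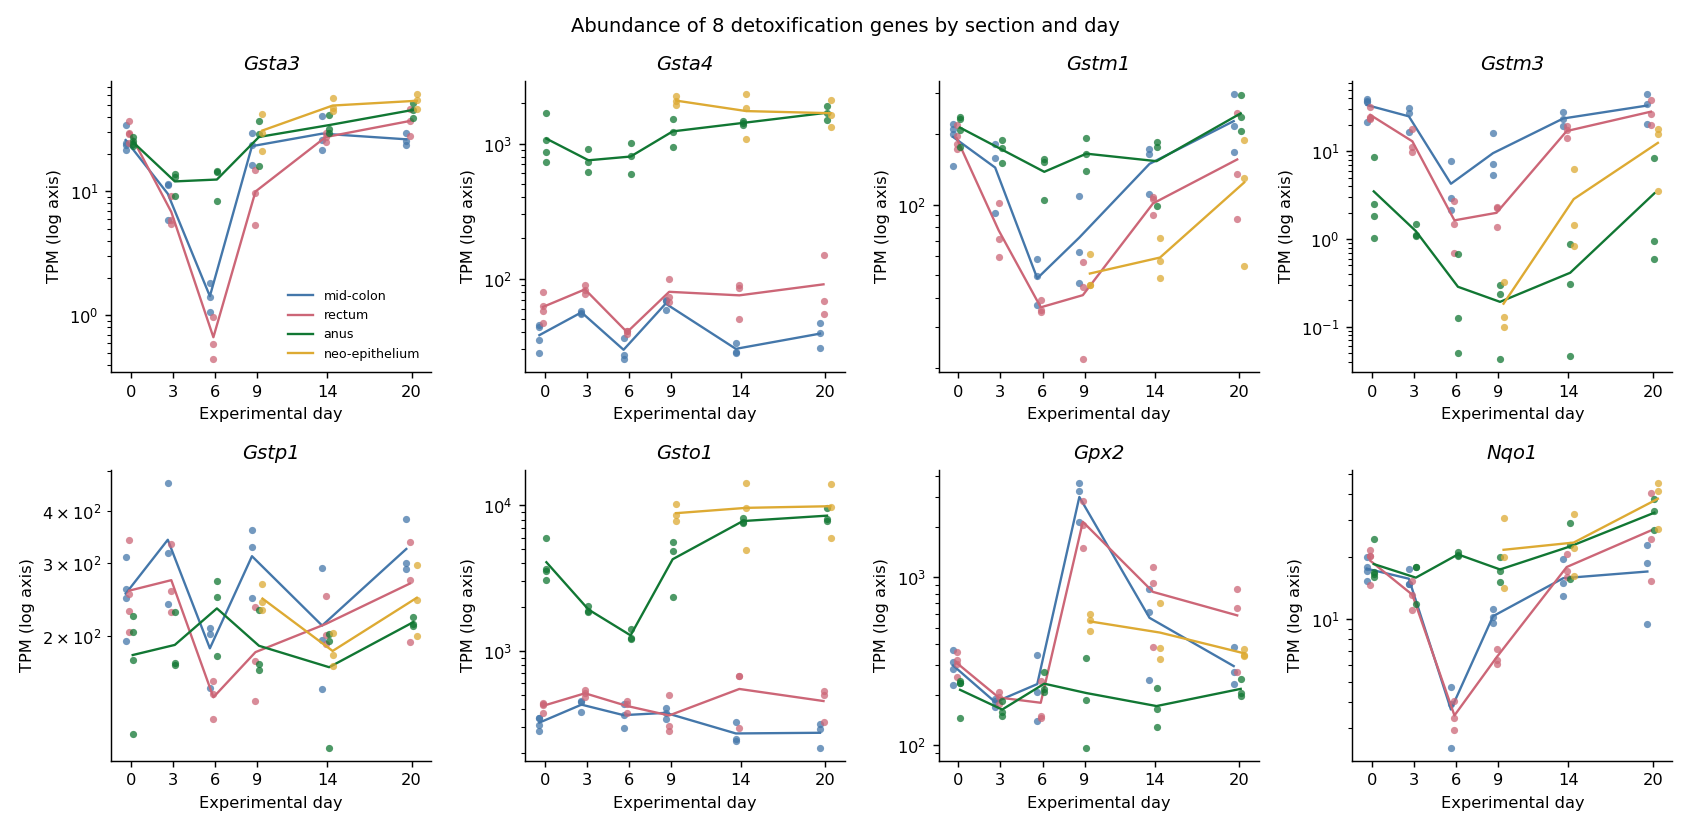
TPM (log axis) of each member against experimental day, with 1 point per sample and lines through the group means for mid-colon, rectum, anus and neo-epithelium. Gsta4 and Gsto1 separate anus and neo-epithelium from mid-colon and rectum, Gsta3 dips to 0.446 to 1.82 TPM in mid-colon and rectum at day 6, and Gpx2 peaks at day 9 in both.

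Gsta3, an alpha class transferase also known for a steroid isomerase activity, was the member with the deepest dip. In rectum it was at 24.6, 29.1, 37.1 and 29.7 TPM at day 0, 5.45, 5.89 and 9.15 TPM at day 3, 0.446, 0.964 and 0.59 TPM at day 6 and 14.9, 9.65 and 5.38 TPM at day 9. At days 14 and 20 it was at 24.9, 27.6 and 29.9 TPM and at 46.3, 36.8 and 27.9 TPM. All samples of days 3, 6 and 9 were below all day 0 samples, and those of days 14 and 20 overlapped them. The differences from day 0 were -2.01 ± 0.184 at day 3, -4.22 ± 0.167 at day 6 and -1.59 ± 0.285 at day 9 (log2, SE). In mid-colon the values were 24.4, 34.5, 23.5 and 21.4 TPM at day 0, 5.85, 11.6 and 11.3 TPM at day 3, 1.82, 1.4 and 1.07 TPM at day 6 and 23.7, 16.4 and 29.4 TPM at day 9. Mid-colon therefore overlapped day 0 again by day 9 while rectum did not, and the day 9 response differed by -1.42 ± 0.391 (log2, SE) between the sections, a difference that was called in 4 of 11 alternatives and was -0.89 without mouse 13. It was also not called without mouse 1 (-1.48), 2 (-1.57), 3 (-1.28) or 4 (-1.34), with no filter, or with a pseudocount of 0.1 TPM. In anus Gsta3 was at 23.4, 24, 27.6 and 25.4 TPM at day 0, 9.23, 13.9 and 13 TPM at day 3, 14.7, 8.37 and 14.3 TPM at day 6 and 39.4, 45.1 and 51.9 TPM at day 20. Its anal dip was -0.99 ± 0.215 at day 6, or -0.75 and no longer called without mouse 9, and at day 20 all 3 samples were above day 0 (0.83 ± 0.153, a call kept in 1 of 10 alternatives and lost without any 1 of the 7 mice, with values of 0.73 to 0.92). Most of the Gsta3 signal, 71.1%, came from 1 of its annotated transcripts and 25.5% from a second.

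Gstm1, the most abundant mu class transferase of the members, and Gstm3 had parallel courses in the colon. In rectum Gstm1 was at 173, 181, 220.1 and 196 TPM at day 0, 59.6, 71.1 and 102 TPM at day 3, 39, 35.2 and 34.7 TPM at day 6 and 56.5, 21.8 and 44.5 TPM at day 9. It was still at 105, 107 and 90.7 TPM at day 14, below every day 0 sample, and at 135, 86.5 and 247 TPM at day 20. Thus all rectal samples of days 3 to 14 were below day 0, by -1.33 ± 0.169, -2.37 ± 0.106, -2.30 ± 0.278 and -0.92 ± 0.113 (log2, SE). In mid-colon it was at 211, 221, 201 and 146 TPM at day 0, 58.2, 49.5 and 37.3 TPM at day 6 and 62.4, 46 and 108 TPM at day 9, and it overlapped day 0 at days 3, 14 and 20. Gstm1 was also summed with its mu class relatives Gstm2 to Gstm7. In rectum this sum gave -1.60 in place of -2.37 at day 6 and -1.64 in place of -2.30 at day 9. Of these relatives, only Gstm3 shared windows of read length with the main Gstm1 transcript (5.76% of its windows). The sum therefore also holds the levels of relatives that shared none, and it is no correction for shared reads. In anus Gstm1 was at 176 to 237 TPM at day 0 and at 105 to 158 TPM at day 6, a difference of -0.64 ± 0.188 that was not called as deposited and was called with TMM.

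Gstm3 was lower still in relative terms. In rectum it was at 23.5, 23.7, 32.3 and 24.3 TPM at day 0, 9.9, 11.2 and 17.9 TPM at day 3, 2.73, 1.47 and 0.698 TPM at day 6, 2.25, 1.38 and 2.34 TPM at day 9 and 19.3, 17.6 and 14.1 TPM at day 14. Every one of these samples was below day 0, and the differences were -0.98 ± 0.196, -3.42 ± 0.249, -3.18 ± 0.177 and -0.58 ± 0.156 (log2, SE), the last of which was called in 3 of 10 alternatives. It was lost with no filter and without mouse 1, 2, 3, 4, 15 or 16 (-0.62 to -0.46), and the day 3 call was lost without mouse 5 (-0.82) or mouse 6 (-0.90). In mid-colon it was at 36, 39.4, 37.7 and 21.4 TPM at day 0, 7.78, 2.91 and 2.12 TPM at day 6 and 7.23, 5.38 and 16 TPM at day 9, and groups overlapped at days 3, 14 and 20. Anal levels were low throughout, at 0.0432 to 0.3 TPM at day 9. Over the 12 mid-colon and rectum group means of log2(TPM + 1), Gstm1 and Gstm3 correlated at r = 0.971, a description of points that share animals and libraries.

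Nqo1, which reduces quinones with 2 electrons and is a widely used readout of NRF2 activity, was low at days 6 and 9 in the colon. In rectum it was at 14.6, 20.1, 21.5 and 20.2 TPM at day 0, 2.94, 3.34 and 4.03 TPM at day 6 and 7.18, 6.34 and 6.11 TPM at day 9. In mid-colon it was at 15.3, 19.9, 17 and 17.7 TPM at day 0, 4.71, 3.89 and 2.41 TPM at day 6 and 10.2, 9.58 and 11.2 TPM at day 9. Both sections were below day 0 in all 3 samples at both times, by -2.01 ± 0.203 and -0.70 ± 0.168 (log2, SE) in mid-colon and -2.17 ± 0.157 and -1.40 ± 0.156 in rectum. At day 20 rectum was at 40.6, 15.2 and 24.4 TPM, with 2 samples above the day 0 range and 1 within it. Anal Nqo1 was at 21, 20.1 and 20.3 TPM at day 6, among the day 0 values of 16.9, 16, 16.5 and 24.2 TPM, and at 33.1, 26.8 and 37.7 TPM at day 20, above all of them (0.80 ± 0.201, not called).

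Colonocyte marker sums differed between days 6 and 9. In rectum the 12 colonocyte markers summed to 18819, 18740.0, 20212 and 19881 TPM at day 0 and 25260.0, 25471 and 23643 TPM at day 6, and in mid-colon to 20671 to 25225 TPM and 21389 to 25596 TPM. At day 9 the sum was lower in both, at 9302, 7181 and 7632 TPM in rectum and 7826 to 11153 TPM in mid-colon. Neutrophil markers without Ly6g (7 genes) were at 2.55, 3.36, 6.25 and 1.3 TPM in rectum at day 0, 419, 810.0 and 3940.2 TPM at day 6 and 13487, 14014 and 12705 TPM at day 9. Ly6g was set apart after its values were seen, because it alone held 532 to 954 TPM in uninjured mid-colon. The part of these marker shifts in the members' values at days 6 and 9 was not tested.

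Gpx2, the gastrointestinal glutathione peroxidase, which is most abundant in crypt epithelium, went the other way at day 9. In mid-colon it was at 285, 366, 313 and 227 TPM at day 0, 188, 183 and 169 TPM at day 3, 208, 138 and 346 TPM at day 6 and 2137, 3652 and 3248 TPM at day 9. Rectum showed 254, 303, 357 and 322 TPM at day 0, 208, 176 and 192 TPM at day 3, 242, 149 and 145 TPM at day 6 and 1505, 2858 and 2061 TPM at day 9. The lowest day 9 sample of either section was thus over 4 times the highest day 0 sample of any section, and the differences from day 0 were 3.32 ± 0.211 in mid-colon and 2.75 ± 0.21 in rectum (log2, SE). At day 3 all samples of both sections were instead below day 0, by -0.70 ± 0.161 and -0.68 ± 0.12; the rectal call was lost without mouse 6 (-0.61). At day 6 rectum was -0.82 ± 0.192 from day 0, or -0.54 with TMM. In rectum Gpx2 was still at 383, 1152 and 919.7 TPM at day 14, above every day 0 sample (1.27 ± 0.345, a call kept in 3 of 10 alternatives and lost without mouse 1, 2, 3, 4, 15 or 16, with values of 0.95 to 1.34), and at 852, 652 and 274 TPM at day 20.

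Proliferation markers, like Gpx2, were low at day 3 and high at day 9 in the colon. Their summed level (8 genes) was 93.8, 102, 112 and 49 TPM in mid-colon at day 0, 24.3, 61.4 and 19 TPM at day 3 and 535, 1030.0 and 755 TPM at day 9. In rectum it was 147, 146, 165 and 131 TPM at day 0, 23.4, 31.7 and 13 TPM at day 3 and 529.6, 698 and 607 TPM at day 9. At day 6 it was 63.7, 8.74 and 18 TPM in mid-colon, where Gpx2 overlapped day 0. In rectum it was then 101, 17.7 and 28.9 TPM, where all Gpx2 samples were below day 0. Neo-epithelium at day 9 had a like proliferation sum, 646, 646 and 612 TPM, with Gpx2 at 605, 479 and 553 TPM, below every day 9 sample of mid-colon and rectum. Anal Gpx2 overlapped day 0 on every later day, with proliferation markers at 99 to 357 TPM over days 3 to 20. At day 6 these anal markers were at 307 to 357 TPM, above all day 0 samples (84 to 260 TPM). The part of proliferating cells in the Gpx2 values was not tested.

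**Figure D2:**
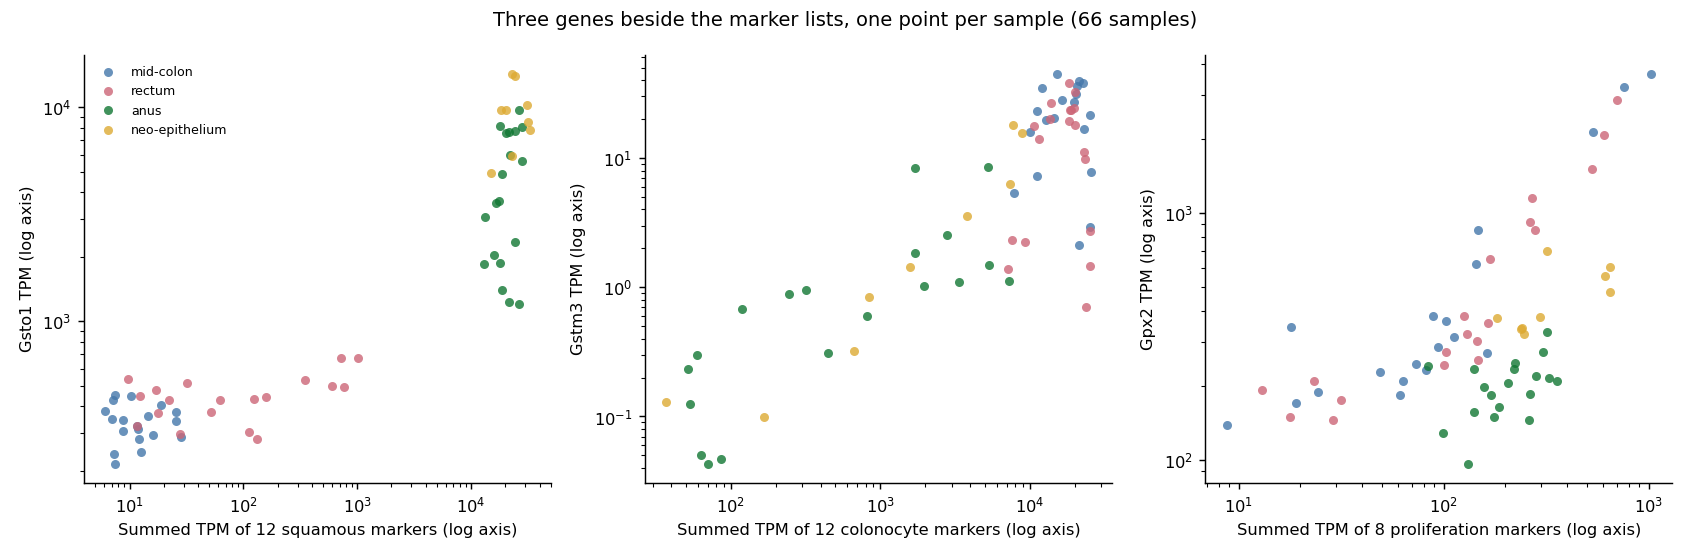
Each point is 1 of 66 samples: Gsto1 against 12 summed squamous markers, Gstm3 against 12 summed colonocyte markers and Gpx2 against 8 summed proliferation markers, all in TPM on log axes. Anus and neo-epithelium lie at 13062 TPM or more of squamous markers, while their Gsto1 ranges from 1201 to 14271 TPM; the Gpx2 points of mid-colon and rectum at day 9 lie at the upper right.

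Gstp1 and the colonic levels of Gsta4 and Gsto1 varied least. Gstp1, the pi class enzyme found in most epithelia, ranged from 108 to 468 TPM over all 66 samples. In rectum it was at 231, 253, 342 and 204 TPM at day 0 and 156, 126 and 145 TPM at day 6, with all 3 day 6 samples below day 0 (-0.83 ± 0.168, or -0.56 relative to the median gene), and it overlapped day 0 on all other days. Gsta4 in mid-colon was at 45.1, 44.2, 35.2 and 28.3 TPM at day 0 and 69.8, 67.9 and 58.3 TPM at day 9, above all day 0 samples (0.78 ± 0.191). In rectum Gsta4 was at 41, 38.8 and 40.8 TPM at day 6, below all day 0 samples (-0.58 ± 0.16), a call lost with TMM (-0.31). Gsto1 in rectum stayed at 376 to 449 TPM at day 6, and its difference from day 0 was 0.00 as deposited and 0.27 with TMM. Among rectal samples of days 9, 14 and 20, squamous markers summed to 765, 133 and 113, then 27.8, 1018 and 719.5 and then 600.1, 349 and 11.7 TPM, and Gsto1 in the same order was at 494, 283 and 303, then 296, 674 and 671 and then 501, 529 and 326 TPM.

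In anus, Gsto1 had the largest changes in TPM of the 8 members. It was at 6001, 3656, 3561 and 3056 TPM at day 0, 1860.3, 1878 and 2032 TPM at day 3, 1403, 1201 and 1229 TPM at day 6, 4868, 2339 and 5592 TPM at day 9, 7569, 7683 and 8169.5 TPM at day 14 and 7762, 8093 and 9659.5 TPM at day 20. All samples of days 3 and 6 were below day 0 and all of days 14 and 20 above it, with differences of -1.03 ± 0.237, -1.62 ± 0.23, 0.99 ± 0.232 and 1.11 ± 0.238 (log2, SE), of which day 6 was called. Squamous markers summed to 22099, 17683, 16659 and 13321 TPM at day 0 and 18800.0, 26292 and 21589 TPM at day 6, with overlapping groups. Colonocyte markers in anus were at 1977, 2804, 1706 and 5268 TPM at day 0 and 118, 53 and 62.9 TPM at day 6. The part of these cell types in the anal Gsto1 values was not tested. Gsta4, the other abundant transferase there, was at 805, 1002 and 596 TPM at day 6 and overlapped day 0 on every day.

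Counts of members past the test are given beside the same share of all genes, and nothing is read from them because the members were chosen on these contrasts; all days of a section share its day 0 samples. In mid-colon, 0 of 8 members were called at day 3, where 0.0666% of all tested genes were higher and 0.308% lower. At day 6, 0 were higher and 4 lower, beside 4.93% and 9.98% of all genes. At day 9, 2 were higher and 3 lower, beside 26.5% and 17%. At days 14 and 20 no member was called in mid-colon, beside 2.55% and 1.81%, and 0.677% and 0.883%. With TMM, 2 members (Gsta3 and Gpx2) were called lower at day 3 in mid-colon. In rectum, 0 members were higher and 4 lower at day 3 (1.5% and 5.14% of all genes), 0 and 7 at day 6 (11.5% and 37.2%), 1 and 4 at day 9 (33.5% and 20%), 1 and 2 at day 14 (6.31% and 9.52%) and 0 and 0 at day 20 (2.79% and 4.88%). In anus, 0 members were called at days 3, 9 and 14, beside 0.022% higher and 0.022% lower, 1.46% and 3.63%, and 2.26% and 2.01% of all genes. Anal day 6 had 0 higher and 2 lower (8.64% and 6.37%), or 4 lower with TMM, which added Gstm1 and Gstm3, and with TMM 1 member, Gstm3, was lower at day 9. Anal day 20 had 1 higher and 0 lower (1.09% and 0.371%).

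The scaling of TPM moved the balance of calls over all genes. The median gene differed from day 0 by 0.14 at day 3 and -0.24 at day 6 in mid-colon, and by -0.27 at day 6 and 0.13 at day 9 in rectum, and TMM brought each to within 0.05 of 0. With TMM, mid-colon had 15 genes higher and 119 lower at day 3 in place of 8 and 37, 222 and 440 at day 20 in place of 82 and 107, 1045 genes higher and 926 lower at day 6 in place of 590 and 1194, and 592 and 684 at day 14 in place of 309 and 220. At day 9 mid-colon had 3277 and 3043 in place of 3264 and 2089. Rectum had 326 higher and 545 lower at day 3 in place of 185 and 634, 2362 and 2200 at day 6 in place of 1455 and 4688, and 3615 and 4009 at day 9 in place of 4404 and 2623. At days 14 and 20 it had 1290 and 1306 in place of 804 and 1213, and 622 and 1055 in place of 354 and 619. Anus had 1 and 2 at day 3 in place of 3 and 3, 387 and 815 at day 9 in place of 199 and 493, 253 and 408 at day 14 in place of 311 and 277, and 154 and 90 at day 20 in place of 150 and 51. Relative to the median gene, the rectal day 6 differences were -3.95 for Gsta3, -3.15 for Gstm3, -2.10 for Gstm1, -1.90 for Nqo1 and -0.55 for Gpx2. Of 168 member differences over the 21 comparisons, 13 took the other sign under TMM or relative to the median gene, and 0 of these 13 were among the 47 that were called. With TMM, rectal Gsto1 was called higher at days 3 and 6 and rectal Gstp1 lower at day 9, which they were not as deposited.

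**Figure D3:**
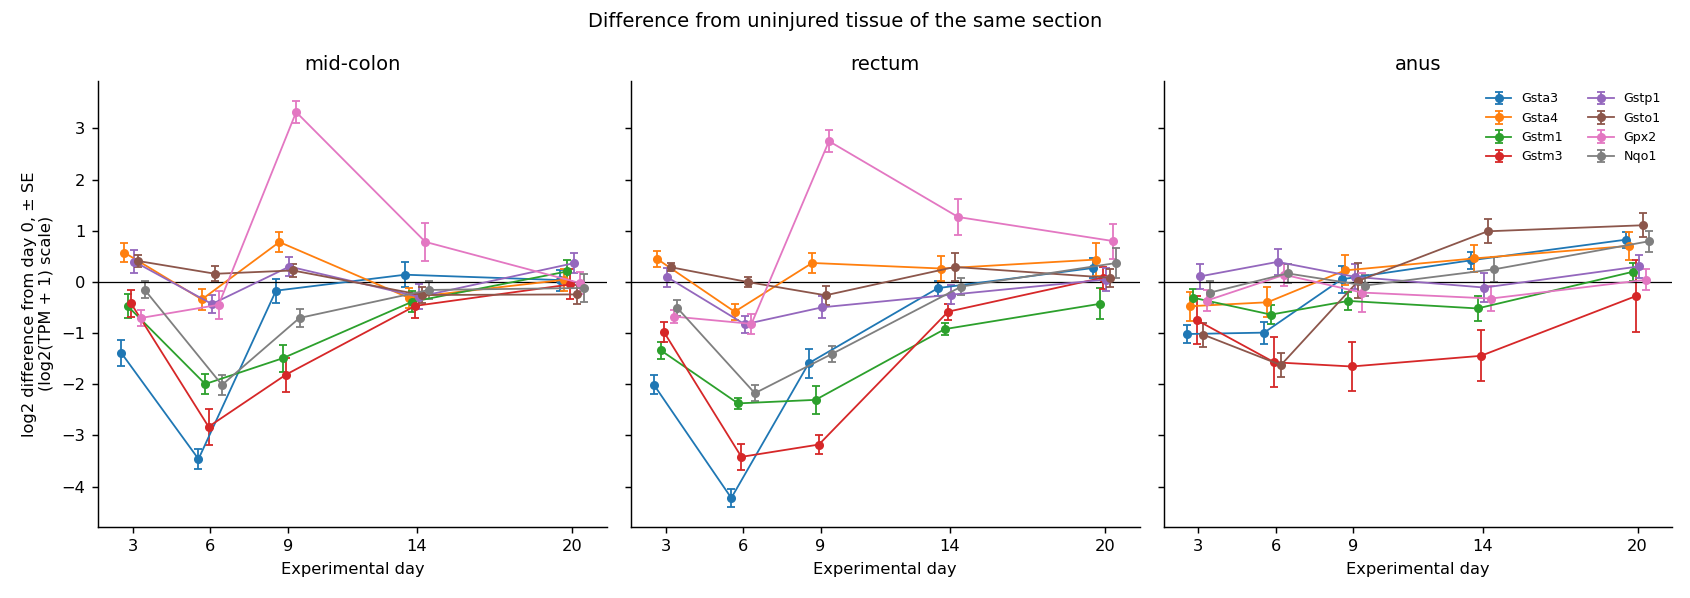
Log2 difference from day 0 of the same section (log2(TPM + 1) scale; bars are SE from limma; 3 mice per later day against 4) for the 8 members in mid-colon, rectum and anus. In rectum Gsta3 reaches -4.22 ± 0.167 at day 6 and Gpx2 reaches 2.75 ± 0.21 at day 9, while the anal values stay between -1.65 and 1.11.

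The squamous neo-epithelium held more Gsta4 and Gsto1 than the rectum of the same mice. Gsta4 was at 2245, 2055 and 1929 TPM at day 9, 1076, 2314 and 1822 TPM at day 14 and 1622, 2089 and 1320.2 TPM at day 20. Gsto1 was at 8526, 10198 and 7819 TPM at day 9, 4937, 14271 and 9666 TPM at day 14 and 9737, 13961 and 5933 TPM at day 20. All 9 neo-epithelial samples exceeded all 9 rectal samples for both genes, and the differences with day as a covariate were 4.50 ± 0.195 and 4.38 ± 0.231 (log2, SE). Against anus the groups overlapped, with differences of 0.32 ± 0.155 and 0.48 ± 0.232 that were not called. Gsta3 was higher in neo-epithelium than in rectum in 9 of 9 mice (0.99 ± 0.193), and so was Nqo1 in 9 of 9 (0.80 ± 0.221). Uninjured rectum held Gsta3 at 24.6 to 37.1 TPM and Nqo1 at 14.6 to 21.5 TPM. Neo-epithelium overlapped these ranges at day 9 and was above both at day 20. Neo-epithelial Gsta3 was at 42.4, 21.3 and 29.3 TPM at day 9 and 60.7, 54.4 and 46.3 TPM at day 20, with all day 20 samples above day 9 (0.82 ± 0.258, called with TMM but not as deposited). Nqo1 was at 30.7, 14.1 and 19.8 TPM at day 9 and 45.2, 27.2 and 41.5 TPM at day 20, and these groups overlapped. Gstp1 was at 242, 231 and 267 TPM at day 9 and differed from rectum by 0.05 ± 0.138 and from anus by 0.25 ± 0.118.

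Summed over the 8 members, the defence enzymes took 0.086% to 0.0871% of TPM in mid-colon at day 6, 0.0939% to 0.129% at day 0 and 0.29% to 0.453% at day 9. In anus the share was 0.454% to 0.826% at day 0, 0.251% to 0.292% at day 6 and 1.01% to 1.23% at day 20. Neo-epithelium had 0.704% to 1.72% over its days. Gpx2 was the largest part of the sum in mid-colon at day 9, and Gsto1 in anus and neo-epithelium on every day.

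The mu class transferases and Gpx2 also differed between neo-epithelium and its neighbours. Gstm1 was lower in neo-epithelium than in anus in all 9 mice, with a lowest, median and highest level of 45.2, 57.3 and 189 TPM against 98.9, 185 and 295 TPM, a difference of -1.38 ± 0.201 (log2, SE). Gpx2 was higher in neo-epithelium than in anus in 9 of 9 mice (1.23 ± 0.213) and higher than in rectum in 2 of 9 (-1.09 ± 0.276). That rectum was injured. Uninjured rectum held Gpx2 at 254 to 357 TPM, below all day 9 neo-epithelial samples (479 to 605 TPM) and overlapping those of days 14 and 20. Gstm3 was lower in neo-epithelium than in rectum in all 9 mice (-1.71 ± 0.306), and it was at 0.323, 0.129 and 0.0991 TPM at day 9, 6.28, 0.835 and 1.45 TPM at day 14 and 18.1, 3.56 and 15.7 TPM at day 20. Its day 20 samples were all above day 9 (3.27 ± 0.534, or 5.25 with a pseudocount of 0.1 TPM), and the summed colonocyte markers of the same samples were 667, 36.9 and 168 TPM, 7422, 838 and 1584 TPM and 7703, 3829.9 and 8924 TPM. The part of colonocyte RNA in the Gstm3 values of neo-epithelium was not tested. Against anus, Gstm3 differed by 1.03 ± 0.401, a call kept in 9 of 13 alternatives, with overlapping groups. It was lost with no filter and without mouse 14 (0.85), 16 (1.01) or 19 (0.74), and it was 1.63 with a pseudocount of 0.1 TPM.

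Against rectum, 4 members were called higher and 2 lower in neo-epithelium, beside 20.8% and 21.3% of 14488 genes. Against anus 2 were higher and 1 lower, beside 38.1% and 20.4% of 14857 genes. From day 9 to day 20 within neo-epithelium, 1 was higher (Gstm3) and 1 lower (Gpx2, -0.63 ± 0.135, called in 6 of 9 alternatives and not without mouse 11, -0.55, mouse 13, -0.61, or mouse 17, -0.60), beside 10.1% and 16.1%. For the day 9 response of rectum less that of mid-colon, 0 members were higher and 1 lower (Gsta3), beside 5.84% and 0.703%. With TMM, Gstm3 (-1.37 ± 0.414 as deposited) and Gstp1 (-0.80 ± 0.304) were called lower as well. TMM gave 4555 genes higher and 3849 lower against anus in place of 5659 and 3033, 1768 and 1578 for day 20 against day 9 in place of 1336 and 2126, and 760 and 389 for the response in place of 790 and 95. The median gene was 0.17 apart between neo-epithelium and anus and -0.14 between its days 20 and 9, against 0.06 and -0.02 with TMM.

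**Figure D4:**
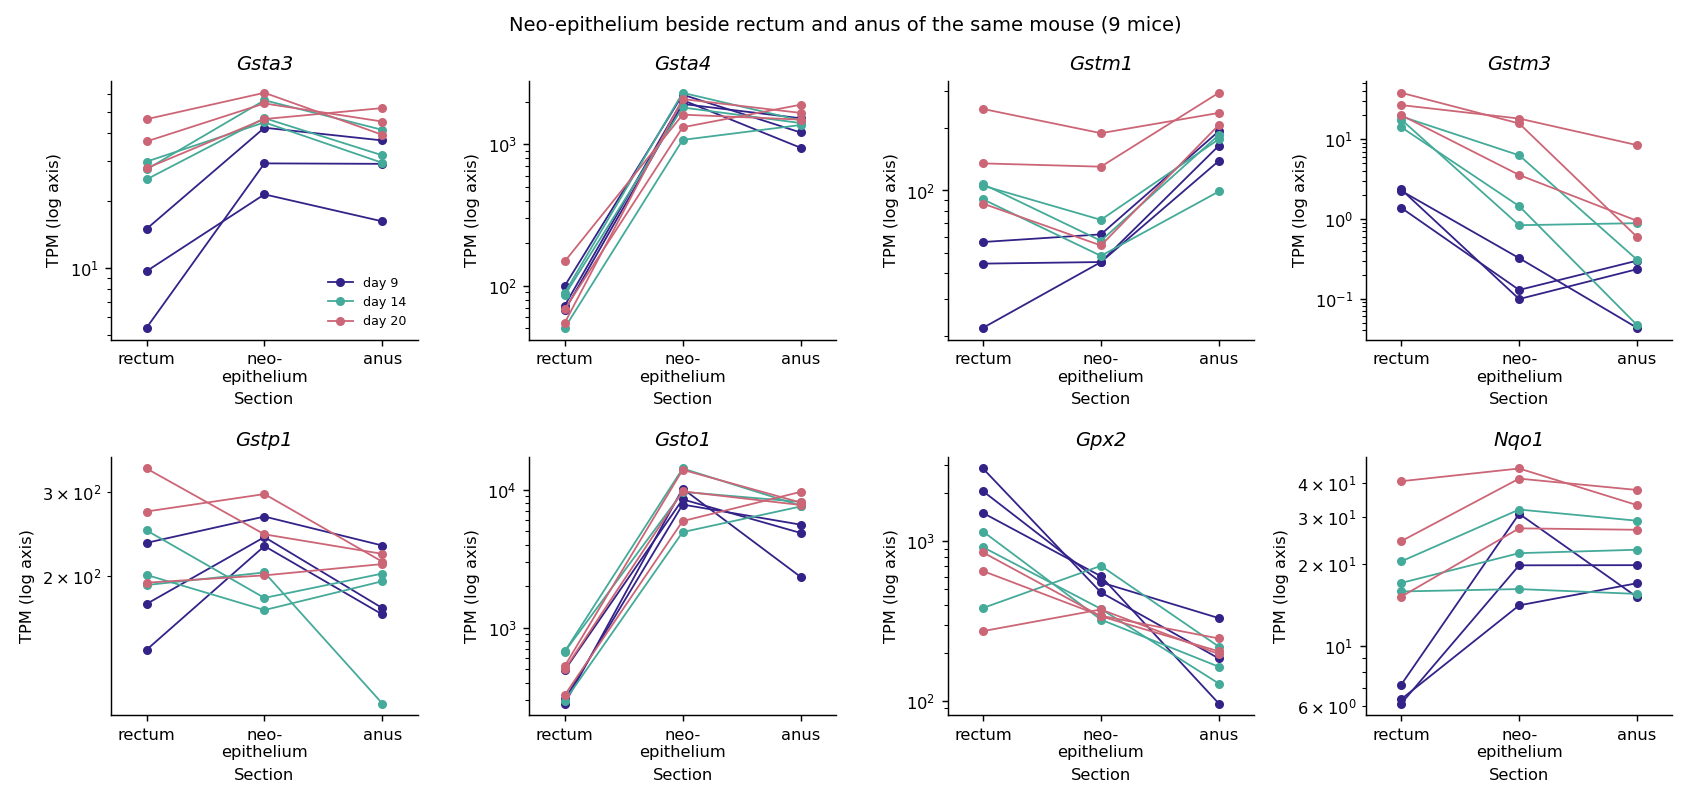
TPM (log axis) of each member in the rectum, neo-epithelium and anus of the same 9 mice, joined by lines and coloured by day. Gsta4 and Gsto1 step up from rectum to neo-epithelium in all 9 mice, Gstm3 steps down in all 9, and Gstm1 is lower in neo-epithelium than in anus in all 9.

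The wider pathway was followed with 6 lists, 118 genes in all, tested with limma over all genes. The lists were chosen with earlier results of these data known, and many named genes are those with the largest changes. Their counts, medians and adjusted p-values, here and below, are therefore a description and no independent support. Counts by list, here and below, are as deposited. With TMM, rectum at day 6 had 20 higher and 38 lower over the 6 lists, in place of 14 and 61. All genes then had 2362 higher and 2200 lower, in place of 1455 and 4688. At day 6 in rectum, the other glutathione transferases had 0 of 19 tested genes higher and 15 lower, beside 11.5% and 37.2% of all genes, with a median difference of -0.56 against -0.27 over all genes. Gsta1, an alpha class relative of Gsta3, fell from 98.7 ± 2.96 to 22.5 ± 2.06 TPM, a log2 difference of -2.09 ± 0.0924 (SE; limma, adjusted p = 7.65e-06). Gstm2, a mu class relative of Gstm1, fell from 115 ± 6.3 to 43.6 ± 2.11 TPM, a log2 difference of -1.38 ± 0.0871 (SE; limma, adjusted p = 4.22e-05). In mid-colon at day 6, 11 of 19 were lower and 0 higher, beside 9.98% and 4.93% of all genes, and Gsta1 fell from 76.9 ± 4.48 to 14 ± 2.85 TPM, a log2 difference of -2.39 ± 0.158 (SE; limma, adjusted p = 0.000107). At day 9, 16 of 19 in rectum and 11 of 19 in mid-colon were lower, and 1 and 2 were higher, beside 20% and 17% of all genes lower and 33.5% and 26.5% higher. Gstm6 fell in rectum from 17.6 ± 3.75 to 2.88 ± 1.04 TPM, a log2 difference of -2.27 ± 0.214 (SE; limma, adjusted p = 4.76e-05). Gstp2, whose reads are hard to tell from those of Gstp1, fell from 107 ± 14.6 to 50.2 ± 4.14 TPM, a log2 difference of -1.07 ± 0.131 (SE; limma, adjusted p = 0.00019), while Gstp1 was -0.50 ± 0.214 from day 0. The gene that rose in both sections was Gstcd, a little-studied gene with a glutathione transferase-like domain, which in rectum went from 1.84 ± 0.239 to 6.3 ± 0.871 TPM, a log2 difference of 1.36 ± 0.149 (SE; limma, adjusted p = 0.000103).

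Of 18 tested genes of glutathione supply in rectum at day 9, 7 were higher and 3 lower, beside 33.5% and 20% of all genes. At day 6 2 of 17 were higher and 10 lower, beside 11.5% and 37.2%. Slc7a11, the cystine importer that feeds glutathione synthesis, rose in rectum at day 9 from 0.7 ± 0.0384 to 16.3 ± 5.75 TPM, a log2 difference of 3.29 ± 0.217 (SE; limma, adjusted p = 7.71e-06). Gsr, glutathione reductase, rose from 30.3 ± 3.74 to 86.6 ± 6.9 TPM, a log2 difference of 1.49 ± 0.126 (SE; limma, adjusted p = 2.81e-05) in rectum and from 22.5 ± 6.07 to 62.8 ± 23.5 TPM, a log2 difference of 1.42 ± 0.281 (SE; limma, adjusted p = 0.00243) in mid-colon. Gclc, the catalytic subunit of the rate-limiting ligase, fell in rectum at day 6 from 24.4 ± 2.42 to 9.59 ± 0.904 TPM, a log2 difference of -1.26 ± 0.119 (SE; limma, adjusted p = 0.000256). At day 9 Gclc averaged 19.5 ± 4.61 against 24.4 ± 2.42 TPM at day 0 in rectum (adjusted p = 0.136, limma), and the modifier subunit Gclm averaged 94.7 ± 7.08 against 81 ± 16 TPM (adjusted p = 0.236, limma). Cth, which makes cysteine by transsulfuration, fell at day 9 from 39.5 ± 3.67 to 10.1 ± 1.98 TPM, a log2 difference of -1.88 ± 0.152 (SE; limma, adjusted p = 2.2e-05).

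In rectum, peroxide and superoxide removal was the list with most genes higher at day 9, 12 of 21 in rectum and 6 of 21 in mid-colon, with 3 lower in each. Of all genes, 33.5% were higher in rectum and 26.5% in mid-colon, and 20% and 17% lower. Its rectal median difference was 0.51, against 0.13 over all genes. Txnrd1, cytosolic thioredoxin reductase, rose in rectum from 41.9 ± 3.28 to 145 ± 19.3 TPM, a log2 difference of 1.76 ± 0.123 (SE; limma, adjusted p = 1e-05). Gpx3, the secreted glutathione peroxidase, rose from 25.4 ± 4.31 to 129 ± 50.6 TPM, a log2 difference of 2.24 ± 0.242 (SE; limma, adjusted p = 9.96e-05). Prdx6, the peroxiredoxin that draws on glutathione, fell from 11215 ± 1090.0 to 2356 ± 1170.0 TPM, a log2 difference of -2.36 ± 0.272 (SE; limma, adjusted p = 0.000139), and in mid-colon from 12553 ± 1250.0 to 3137 ± 1170.0 TPM, a log2 difference of -2.07 ± 0.223 (SE; limma, adjusted p = 7.28e-05).

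Among NRF2 regulators and other target genes, 5 were higher and 4 lower of 21 in rectum at day 9, beside 33.5% and 20% of all genes. In mid-colon 2 and 4 of 20 were, beside 26.5% and 17%. At day 6 the rectum had 2 higher and 10 lower of 21, beside 11.5% and 37.2%. Hmox1, haem oxygenase, rose in rectum at day 9 from 6.11 ± 1.01 to 92.9 ± 28.9 TPM, a log2 difference of 3.69 ± 0.21 (SE; limma, adjusted p = 4.05e-06), and in mid-colon from 3.9 ± 0.684 to 17.5 ± 2.1 TPM, a log2 difference of 1.92 ± 0.19 (SE; limma, adjusted p = 4.58e-05). The rectal response exceeded that of mid-colon by 1.77 ± 0.277 (log2, SE; limma, adjusted p = 0.00158). Cbr1, a carbonyl reductase, fell in rectum from 230.3 ± 14.8 to 38.6 ± 9.53 TPM, a log2 difference of -2.57 ± 0.154 (SE; limma, adjusted p = 5.04e-06). Nfe2l2 itself averaged 84.9 ± 16.2 against 81.5 ± 5.14 TPM (day 9 against day 0) in rectum (adjusted p = 0.804, limma), and Keap1 17.5 ± 1.74 against 16.2 ± 1.65 TPM (adjusted p = 0.519, limma). Macrophage markers (8 genes summed), which mark cells that also make Hmox1, were at 279.7, 234, 254 and 317 TPM in rectum at day 0 and 1912, 1441 and 1760.2 TPM at day 9, and their part in the Hmox1 value was not tested.

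Other conjugation enzymes and exporters were mostly lower at day 9, when 20% of all genes were lower in rectum and 17% in mid-colon. The shares of all genes higher were then 33.5% in rectum and 26.5% in mid-colon. Of 17 tested genes of glucuronide, sulfate, acetyl and methyl conjugation, 14 were lower and 0 higher in rectum at day 9, and 13 and 0 in mid-colon, where their median was -1.19 against 0.09 over all genes. Sult1a1, a phenol sulfotransferase, fell in rectum from 115 ± 12.4 to 10.3 ± 9.69 TPM, a log2 difference of -3.67 ± 0.44 (SE; limma, adjusted p = 0.000174). Among 8 exporters tested in rectum at day 9, 5 were lower and 2 higher. Abcb1a, P-glycoprotein, fell in rectum from 399 ± 64.9 to 32.3 ± 16 TPM, a log2 difference of -3.71 ± 0.319 (SE; limma, adjusted p = 3.03e-05). Abcc3, which exports glutathione and glucuronide conjugates, fell from 60.6 ± 13.4 to 24.7 ± 3.16 TPM, a log2 difference of -1.24 ± 0.19 (SE; limma, adjusted p = 0.000677). The summed colonocyte markers were lower in the same samples, as given above, and their part in these falls was not tested.

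**Figure D5:**
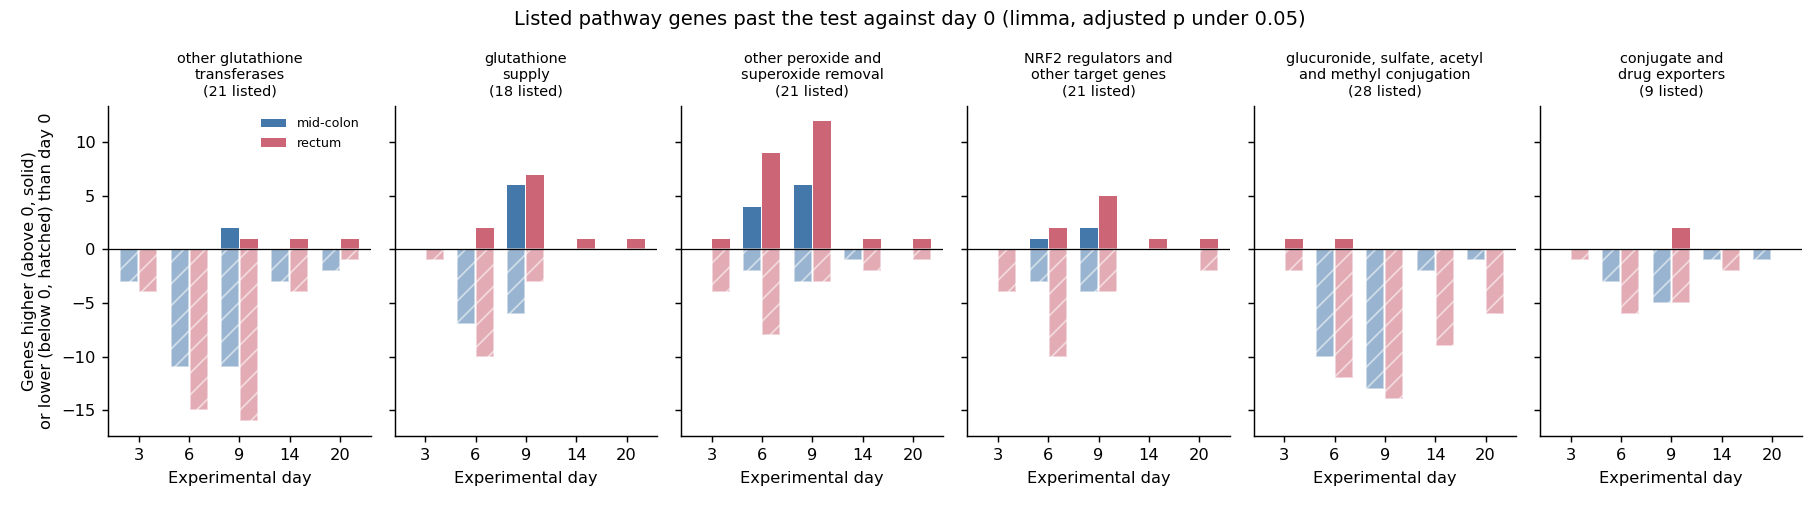
Number of listed genes past the test against day 0 (limma, adjusted p under 0.05) in mid-colon and rectum by day, with genes higher drawn above 0 (solid) and genes lower below 0 (hatched). At day 9 in rectum 12 genes of peroxide and superoxide removal are higher, while 14 conjugation genes and 16 other glutathione transferases are lower.

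Over all 6 lists, rectum had 14 genes higher and 61 lower of 103 at day 6 (20 and 38 with TMM), beside 11.5% and 37.2% of all genes. At day 9 it had 27 and 45 of 104 (20 and 50 with TMM), beside 33.5% and 20%. Mid-colon had 5 and 36 of 100 at day 6 (5 and 28 with TMM), beside 4.93% and 9.98%. At day 9 mid-colon had 16 and 42 of 102 (15 and 47 with TMM), beside 26.5% and 17%. All genes at day 9 had 3615 higher and 4009 lower in rectum with TMM, and 3277 and 3043 in mid-colon. At day 3, rectum had 2 higher and 16 lower of 101, beside 1.5% and 5.14%, and mid-colon 0 and 3 of 101, beside 0.0666% and 0.308%. By day 14 the counts were 4 and 17 of 102 in rectum (6 and 14 with TMM), beside 6.31% and 9.52%, and 0 and 7 of 101 in mid-colon, beside 2.55% and 1.81%. At day 20 they were 4 and 10 of 101 in rectum, beside 2.79% and 4.88%, and 0 and 4 of 100 in mid-colon, beside 0.677% and 0.883%. Gsta1 was among those still lower in mid-colon at day 20, going from 76.9 ± 4.48 to 27.1 ± 5.93 TPM, a log2 difference of -1.49 ± 0.185 (SE; limma, adjusted p = 0.00738). Anus had 0 listed genes called by limma at day 3 (7 of 105 at an unadjusted p under 0.05, 1 called with TMM), beside 0.022% of all genes higher and 0.022% lower. It had 7 higher and 16 lower of 105 at day 6, beside 8.64% and 6.37%, and 1 and 9 of 104 at day 9, beside 1.46% and 3.63%. At day 14 it had 1 and 7 of 105, beside 2.26% and 2.01%, and at day 20 it had 1 and 0, beside 1.09% and 0.371%. The gene higher in anus at day 20 was Nfe2l2, which went from 43.3 ± 8.8 to 84.3 ± 5.51 TPM, a log2 difference of 0.96 ± 0.178 (SE; limma, adjusted p = 0.0443), a call kept in 3 of 10 alternatives and lost without mouse 1, 2, 3, 17, 18 or 19 (0.88 to 1.01) and with no filter. Between rectum and mid-colon at day 0, 2 of 101 listed genes were higher and 0 lower, and with TMM 0 higher and 2 lower, beside 1.52% and 0.274% of all genes as deposited.

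Uninjured anus had 25 of 105 tested pathway genes higher and 49 lower than rectum, beside 25.9% and 34.4% of all genes. Gsta1 averaged 469 TPM in anus, with a log2 difference of 2.10 ± 0.286 (SE; limma, adjusted p = 0.000173), and Gsta2 at 136 ± 72 against 16.1 ± 3.63 TPM, a log2 difference of 2.89 ± 0.321 (SE; limma, adjusted p = 5.35e-05), in the same direction as Gsta4. Ggct, which breaks down gamma-glutamyl peptides, was at 92.1 ± 24.6 against 3.47 ± 0.582 TPM, a log2 difference of 4.35 ± 0.205 (SE; limma, adjusted p = 1.61e-07). Gclm was at 39.7 ± 11.2 against 81 ± 16 TPM, a log2 difference of -1.03 ± 0.215 (SE; limma, adjusted p = 0.00225). Neo-epithelium had 32 of 108 genes higher and 43 lower than rectum, beside 20.8% and 21.3% of all genes. Against anus it had 47 of 107 higher and 26 lower, beside 38.1% and 20.4%. Nfe2l2 was at 122 ± 24.5 against 84.2 ± 17.5 TPM, a log2 difference of 0.53 ± 0.123 (SE; limma, adjusted p = 0.00218) relative to rectum, and at 122 ± 24.5 against 71.8 ± 16.9 TPM, a log2 difference of 0.76 ± 0.124 (SE; limma, adjusted p = 7.18e-05) relative to anus. Gclc was at 39.4 ± 9.73 against 21.2 ± 5.81 TPM, a log2 difference of 0.87 ± 0.156 (SE; limma, adjusted p = 0.000169) and Gsr at 105 ± 29.4 against 31.1 ± 12.2 TPM, a log2 difference of 1.77 ± 0.239 (SE; limma, adjusted p = 1.09e-05), both relative to anus. Neutrophil markers without Ly6g were at 7482 to 19569 TPM in neo-epithelium at day 9 against 967 to 3298 TPM in anus. The 2 sections overlapped in these markers at days 14 and 20. Skeletal muscle and colonocyte RNA in anus, as given above, also differed between these sections. The part of these cell types was not tested. From day 9 to day 20 of neo-epithelium, 20 of 105 genes rose and 19 fell (28 and 13 with TMM), beside 10.1% and 16.1% of all genes.

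The genes whose pattern was most like each member were found over the 21 section-by-day means of log2(TPM + 1), among 12608 genes with the members themselves left out, as Pearson r with no test; the points share animals and libraries. For Gsta4 they included Serpinb11 (r = 0.989) and Sox21 (0.988), and for Gsto1 they were Ankk1 (0.988), Ablim3 (0.987) and Sox2 (0.984). For Gstm3 they included Cyp2d26 (0.967) and Htr4 (0.956), and for Gpx2 they were Brip1 (0.948), Thyn1 (0.941) and Mrpl46 (0.931). The values for Gstm1 were lower, with Acer1 (0.894), Gstm2 (0.884) and Acot13 (0.868), as were those for Nqo1 with Atpif1 (0.887), Chchd5 (0.879) and Sec31a (0.868). Outside the members, Gstp1 was closest to Immt (0.880), Idh3a (0.821) and Tymp (0.813), and Gsta3 to Mettl8 (0.834), Plp2 (0.832) and Eif2a (0.831). Among members, Gsta4 and Gsto1 correlated at r = 0.970 over the 21 means, and Gsta3 and Nqo1 at r = 0.893, above any gene named for either. Over the 12 means of mid-colon and rectum, Gsta3 and Nqo1 correlated at r = 0.899 and Gstm3 and Nqo1 at r = 0.923, and Gpx2 correlated with Nqo1 at r = 0.051 and with Gstm1 at r = -0.230.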

How the data were processed

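Bulk RNA-seq of 66 gut sections from 19 mice was analysed. Libraries were stranded mRNA libraries read as single ends of 75 bp, per the labels' protocols, and kallisto, CASAVA and the build mm10 are named in the submitters' processing notes, with no version. The authors deposited TPM per Ensembl transcript in 1 table, recorded here as a score because repeated rows lift the column sums above 1000000. Of 126860 rows, 37344 without values were left out and 1318 repeats dropped, and TPM was summed over 88198 transcripts, less 1284 without a gene identifier, to 30448 genes. The estimated abundances split reads between near-identical genes. There are no read counts, so the depth and counting error are unknown.

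Differences were fitted on log2(TPM + 1), which understates changes of low genes, with limma 3.58.1 in R 4.3.3 (empirical Bayes with trend), on the samples of the 2 groups compared. Genes were tested where the number of samples reaching 1 TPM was no lower than the size of the smaller group. P-values were adjusted by Benjamini-Hochberg over all tested genes, and a call is an adjusted p under 0.05. Neo-epithelium was compared with rectum and anus over days 9 to 20 with day as a covariate, and the day 9 response of rectum less mid-colon as an interaction. Sections of 1 mouse share its number in the labels, so comparisons between sections were repeated with mouse as a blocking factor (consensus correlations of 0.252 for rectum against mid-colon, -0.0549 for anus against rectum, 0.155 and -0.0323 for neo-epithelium against rectum and anus, and 0.151 for the response). Other alternatives were unweighted TMM factors, a pseudocount of 0.1 TPM, no filter, leaving out each mouse, and mu and pi class sums. The code was tested on simulated data. Positions and coding bases came from GENCODE M21, in which 97.4% of the deposited transcripts were found, and promoters from RefSeq (GRCm38.p6). Descriptions used Python 3.11.15 with pandas 2.3.3.

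The members and the lists were chosen with earlier results of these data known. Besides the members, named genes were drawn from 13 glutathione and NRF2 genes and, per comparison and list, from the called genes with the 2 largest rises and 2 largest falls, a mean of at least 5 TPM in a group and no overlap. Also named are the 3 genes most like each member, less 2 genes that are not reported here.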

Additional observations from a re-analysis of the deposited data

Results flagged for a closer look

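In the 4 uninjured mice, 8 of 63 groups (21 named genes in 3 sections) held a sample far from the other 3. Chance gives about 1 in 20 for independent groups of normally distributed values. These groups share mice and libraries, so nothing is read from the count. Gstm3 in rectum had 1 sample at 32.3 TPM against 23.5 to 24.3 TPM in the others. In anus, Gpx2 had 1 sample at 145 TPM against 234 to 241 TPM, and Nqo1 had 1 at 24.2 TPM against 16.0 to 16.9 TPM. Slc7a11 had 1 sample at 1.62 TPM in mid-colon against 0.304 to 0.451 TPM, and 1 at 5.37 TPM in anus against 2.57 to 2.79 TPM. Txnrd1 in anus had 1 at 24.6 TPM against 16.3 to 17.6 TPM. In mid-colon, Gstp2 had 1 sample at 82.4 TPM against 132 to 138 TPM, and Gstm2 had 1 at 112 TPM against 132 to 134 TPM.

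The day 9 response differed between rectum and mid-colon, as an interaction in limma, by -1.42 (log2) for Gsta3, 1.93 for Slc7a11 (adjusted p = 0.0111) and 1.77 for Hmox1 (adjusted p = 0.00158). The Slc7a11 call was lost with a pseudocount of 0.1 TPM (2.00) and without mouse 13 (1.61), and the Gsta3 value was -0.89 without mouse 13. Other genes had differences from day 0 of opposite sign in different sections, with all samples above day 0 in one and all below in another. The contrasts between those sections were not tested. At day 3, Gsto1 was 0.41 higher in mid-colon and 0.29 higher in rectum but -1.03 from day 0 in anus, and none of these differences was called as deposited. At day 6, Nfe2l2 was 0.66 from day 0 in anus and -0.38 in rectum. The rectal value was -0.11 and not called with TMM, and the anal call was lost with no filter and without mouse 1, 2, 3, 8, 9 or 10 (0.57 to 0.71). At day 9, Txnrd1 was 0.92 in mid-colon, 1.76 in rectum and -0.48 in anus.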

How the results depend on the processing

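The counts of listed pathway genes called, higher and lower together, stayed within 1.5 times of the value reported under every alternative for some comparisons. These were mid-colon at day 9, rectum at days 6 and 9, anus against rectum at day 0, and neo-epithelium against rectum and against anus. By direction, rectum at day 6 went from 14 higher and 61 lower to 20 and 38 with TMM. No called member difference changed sign under the alternatives run, but the balance of listed genes for rectum against mid-colon at day 0 turned from 2 higher and 0 lower to 0 and 2 with TMM. In mid-colon, the 3 genes of day 3 became 5 with TMM, 1 with no filter and 1 to 3 when a mouse was left out. The 41 of day 6 became 26 with no filter and 23 to 66 without a mouse, the 7 of day 14 became 3 and 1 to 18, and the 4 of day 20 became 9 with TMM, 1 with no filter and 1 to 16 without a mouse. In rectum, the 18 of day 3 became 11 with no filter and 10 to 22 without a mouse, the 21 of day 14 became 9 and 6 to 58, and the 14 of day 20 became 2 and 0 to 31. In anus, TMM gave 1, 18 and 14 at days 3, 9 and 14 in place of 0, 10 and 8, and no filter gave 6, 2 and 0 at days 9, 14 and 20. Leaving out a mouse gave 11 to 24 in anus at day 6, 5 to 13 at day 9, 1 to 9 at day 14 and 0 to 1 at day 20. For rectum against mid-colon at day 0 the 2 genes became 1 with a pseudocount of 0.1 TPM, 0 with no filter, 9 with the replicate block and 0 to 2 without a mouse. The 39 of neo-epithelium day 20 against day 9 ranged from 12 to 50, and the 16 of the day 9 response from 4 to 20. The replicate block changed no other count by over 1.5 times (73 for anus against rectum at day 0, 76 and 73 for neo-epithelium against rectum and anus, 21 for the response). The mice whose removal moved a count by over 1.5 times were, in mid-colon, 1, 2 and 6 for day 3, 1, 4, 9 and 10 for day 6, 1, 2, 3, 4, 14, 15 and 16 for day 14 and 1, 2, 3, 4, 17 and 19 for day 20. In rectum they were 5 for day 3, 1, 2, 3, 4, 14, 15 and 16 for day 14 (58 without mouse 14) and 1, 2, 3, 4, 17, 18 and 19 for day 20 (31 without mouse 19). In anus they were 2, 8, 9 and 10 for day 6, 11, 12 and 13 for day 9, 2, 3, 15 and 16 for day 14 and 2, 3, 18 and 19 for day 20. They were 1, 2 and 3 for rectum against mid-colon at day 0, 11, 12, 13 and 17 for neo-epithelium day 20 against day 9, and 1, 2, 3 and 13 for the response. The causes were not tested; fewer mice or more genes tested belong to these alternatives by construction. With no read counts, precision at low TPM is unknown.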
